A study of Mus musculus with 12 samples.

Results

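Il33, Il18 and Il1f5 are the 3 genes of keratinocyte interleukin-1 family cytokines followed here across 12 arrays of mouse keratinocytes that carried deltaNp63alpha or a control protein. They were chosen by gene symbol in the platform annotation. Each was represented by 1 probe, so 3 of 9558 probes and 3 of 6774 named genes are described. The current name of Il1f5 is Il36rn, and the files use Il1f5.

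Cytokines of the interleukin-1 (IL-1) family are alarm signals of barrier tissue. Most bind a receptor chain that recruits a shared accessory chain, and the complex signals through the adaptor MyD88 to NF-kB. IL-33 is stored in the nucleus of epithelial cells and is released when they are damaged. IL-18 is made as an inactive precursor that caspase-1 cleaves. Il1f5 encodes an antagonist that occupies the IL-36 receptor without triggering it, and in humans its loss causes pustular psoriasis.

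The cells were primary skin keratinocytes of C57Bl/6NCr mice, and every culture had received an adenovirus. The virus encoded deltaNp63alpha, a p63 isoform that lacks the full N-terminal activation region and is the main form of basal epidermis, or, in the controls, beta-galactosidase (beta-gal). Untransduced cells were not analysed here, and the labels give neither the share of cells that took up virus nor the age of the mice. Cells stood in 0.05 mM calcium (low calcium) or were moved to 0.12 mM (high calcium, which starts differentiation) for the last 24 h. RNA was taken 41 h after transduction, at 7 to 8 days in culture. Each array held a deltaNp63alpha RNA and a beta-gal RNA of 1 calcium level in 2 dyes. Each level had 3 repeats, and each repeat had a forward array (deltaNp63alpha in Cy5) and a reversed array (deltaNp63alpha in Cy3). Both arrays of a repeat make a dye-swap pair, which counts as 1 replicate. The labels speak of technical repeats, so spread between pairs may be technical only.

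A log2 ratio below 0 means less signal from deltaNp63alpha cells than from beta-gal cells. Direction is assumed, not settled. The files do not name the numerator dye, and values were read in the usual order, Cy5 over Cy3, so reversed arrays were turned. The Trp63 probe had pair values of -0.78 and 0.45 in low calcium and -0.59 and -0.51 in high calcium. Under this reading, signal from the viral transcript would put Trp63 above 0, and all its pairs but that of 0.45 lay below 0. Whether the probe reads the viral transcript is not known, so it did not settle the direction. Maspin (Serpinb5), which the series title names as negatively regulated, lay at -0.50 to -1.02 in 5 pairs and was no independent check. Ratios carry no level, so the keratinocyte label could not be tested against marker levels. Krt5, a basal keratin, had a value on 9 of 12 arrays. By experiment number the arrays fall into an earlier and a later set. The earlier one holds repeats 1 and 2 of high calcium and repeat 1 of low calcium, with 7869 to 9096 measured probes per array. The later one holds the other 3 repeats, with 3366 to 6974, and no Il1f5 pair. In bulk RNA, fewer cells of a type and less RNA per cell cannot be told apart.

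The choice of these genes used their values. In an earlier look at the same arrays Il33 and Il1f5 were among the genes lower in high calcium, Il33 led the ranking of the difference between calcium levels, and Il18 was listed beside them. Their high calcium values and the Il33 difference are therefore descriptions without a test. Il18 and Il1f5 had 1 complete pair in low calcium, too few for a test there. No test of a member that is independent of the choice was possible. Measured values were also few: Il33 had a value on 8 of 12 arrays, Il18 on 9 and Il1f5 on 7, and 11 of 18 possible pairs were complete.

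Il1f5 had the lowest value of the 3 in every pair that measured it. In high calcium repeat 1 its log2 ratio was -1.56 on the forward array and -1.42 on the turned reversed array. In high calcium repeat 2 it was -1.55 and -1.27. These 4 arrays all lay far below 0 and close to each other. The pair values of -1.49 and -1.41 gave a mean of -1.45 ± 0.06 (SD, n = 2 pairs), a 2.73-fold lower signal with deltaNp63alpha. In low calcium repeat 1 Il1f5 was at -0.98 (forward) and -1.82 (turned reversed), a pair value of -1.40. That single low calcium pair lay next to both high calcium pairs. The forward array of low calcium repeat 2, which has no partner value, read 0.09, and with it the low calcium mean was -0.66. The antagonist thus had similar complete pairs at both calcium levels, from well-filled arrays only, and 1 unpaired array near 0.

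Il33 gave a different picture at each calcium level. In high calcium repeat 1 its log2 ratio was -0.75 (forward) and -1.11 (turned reversed). In high calcium repeat 2 it was -1.70 and -1.08. All 4 arrays were below 0, and the pair values of -0.93 and -1.39 gave a mean of -1.16 ± 0.32 (SD, n = 2 pairs), a 2.23-fold lower signal. In low calcium repeat 1 the forward array read -0.51 and the turned reversed array 0.47, a pair value of -0.02. In low calcium repeat 2 they read -0.73 and 2.48, a pair value of 0.87 (mean of the level 0.43 ± 0.63, SD, n = 2 pairs). The low calcium arrays of a pair therefore disagreed in sign, by 0.98 and by 3.21 on the log2 scale, while high calcium arrays of a pair differed by 0.36 and 0.62.

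The difference of the Il33 effect between calcium levels (high minus low) was -1.59. The pair values of both levels did not overlap. The choice of Il33, which led the ranking of this difference, largely fixed that, so nothing is read from it. The size of the difference followed the dye: it was -0.61 on forward arrays alone and -2.57 on reversed arrays alone. It also leaned on the low calcium repeat 2, whose reversed array had the most extreme Il33 reading of all. Without that repeat the difference was -1.14, between 1 low calcium pair and 2 high calcium pairs. Without low calcium repeat 1 it was -2.03. Across all genes tested for this difference 0 of 4209 passed limma at an adjusted p of 0.05, a background of 0.0%, with 107 at an unadjusted p under 0.05. With the array set as a block, the high calcium value of Il33 was -0.71 and the difference -1.14, and high calcium Il33 was measured in 1 set only.

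Il18 was the one member with 3 complete high calcium pairs, and its ratios were smaller and more uneven. Its high calcium arrays read -0.55 and -0.25 in repeat 1 (forward and turned reversed), -0.06 and -0.40 in repeat 2, and -1.38 and -1.04 in repeat 3. All 6 were below 0. The pair values of -0.40, -0.23 and -1.21 had a mean of -0.62 ± 0.52 (SD, n = 3 pairs), a 1.53-fold lower signal. Repeat 3, of the later set, stood apart from the other pairs, and without it the mean was -0.32. In low calcium repeat 1 Il18 read -0.35 and -0.57, a pair value of -0.46, within the range of the high calcium pairs. The unpaired forward array of low calcium repeat 2 was at 0.03.

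**Figure D1:**
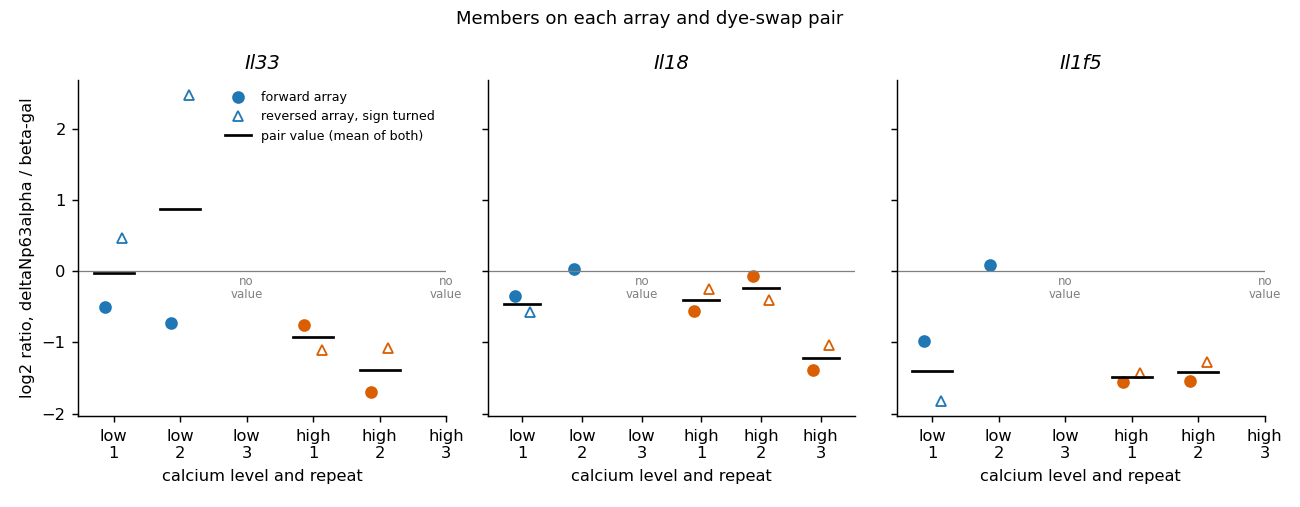
Log2 ratio of deltaNp63alpha over beta-gal (vertical axis) for Il33, Il18 and Il1f5 on each forward array (filled circles) and each reversed array after turning (open triangles), by calcium level and repeat (horizontal axis; low calcium in blue, high calcium in orange). Black bars are values of complete pairs; every high calcium array with a value lies below 0, and the Il33 arrays of low calcium repeat 2 lie at -0.73 and 2.48.

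Side by side within a pair, Il1f5 minus Il18 was -1.09 on the log2 scale in high calcium repeat 1, -1.18 in high calcium repeat 2 and -0.94 in low calcium repeat 1. The gap between antagonist and cytokine was thus alike in the 3 pairs that measured both. Il1f5 minus Il33 was -0.56 and -0.02 in high calcium repeats 1 and 2 and -1.38 in low calcium repeat 1. Il33 minus Il18 was -0.53 and -1.16 in high calcium and 0.44 in low calcium repeat 1. Il33 was therefore near Il1f5 in high calcium repeat 2 and above Il18 in low calcium repeat 1.

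Among all rows with a pair value, Il1f5 ranked 6 from the lowest of 7185 in high calcium repeat 1, 34 of 8214 in high calcium repeat 2 and 17 of 7893 in low calcium repeat 1. Were Cy3 the numerator, these ranks and the following ones would count from the highest. Il33 ranked 62 and 39 in the high calcium repeats, but 3284 in low calcium repeat 1, near the middle of the arrays, and 4341 of 4552 in low calcium repeat 2, near their top. Il18 ranked 632 and 2583 in high calcium repeats 1 and 2, 20 of 2421 in repeat 3 and 807 in low calcium repeat 1. Repeat 3 had the smallest set of measured rows, so the place of Il18 is also given as a share. In repeat 3 0.785% of rows were lower than Il18. In high calcium repeats 1 and 2 the share was 8.78% and 31.4%, and in low calcium repeat 1 it was 10.2%.

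As deposited, both arrays had opposite signs in 9 of 11 complete member pairs. For the 7 high calcium pairs among them the choice of members, by values of forward minus reversed arrays, largely fixed this, so nothing is read from it. Over all rows with a pair value, 53.5% (high calcium repeat 2) to 79.5% (low calcium repeat 2) had equal signs on both arrays. Deposited forward and reversed values correlated at 0.12 (high calcium repeat 1) to 0.71 (low calcium repeat 2) over all rows. The source of these equal signs was not tested. Il33 in low calcium repeats 1 and 2 had equal signs. Its shared part, the mean of both deposited values, was -0.49 and -1.60 there, against 0.18 and -0.31 in the high calcium repeats. For Il18 the shared part lay between -0.17 and 0.17, and for Il1f5 it was -0.07 and -0.14 in high calcium and 0.42 in low calcium repeat 1. If reversed arrays were left as deposited, the high calcium values would be -0.07 for Il33, -0.05 for Il18 and -0.10 for Il1f5, and Il33 in low calcium would be -1.05.

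**Figure D2:**
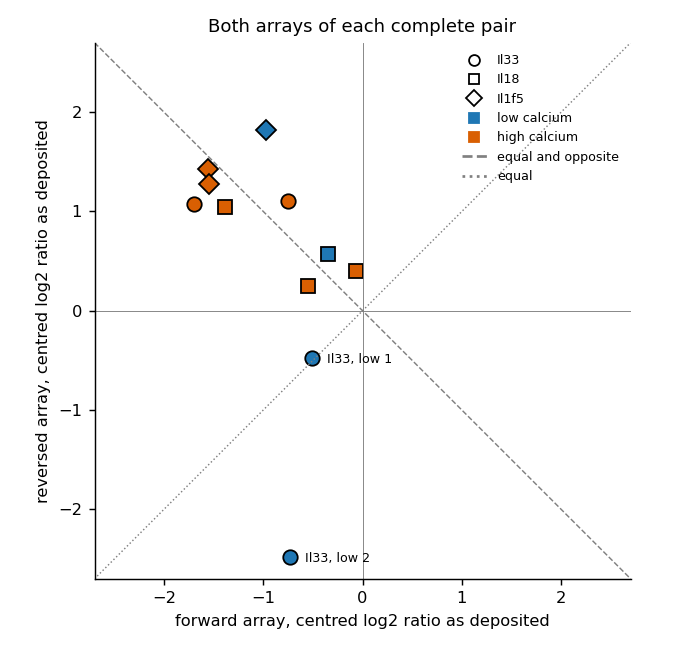
Centred log2 ratio as deposited on the forward array (horizontal axis) and on the reversed array (vertical axis) of each complete pair, by member (shape) and calcium level (colour). Points on the dashed line have the same size and opposite sign on both arrays, which the choice of members largely fixed for the 7 high calcium pairs; Il33 in low calcium repeats 1 and 2 lies below 0 on both arrays.

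Starts of transcription were looked at for shared sequence, because the high calcium means of the 3 genes all lay below 0. The choice of members largely fixed this. The Il18 mean was the nearest to 0 (-0.62, and -0.32 without repeat 3). RefSeq (GRCm38.p6) gave 5 windows for the 3 genes, each from 250 bases before to 50 bases after a start. The windows are shown up to the start for the first Il33 start (chr19:29924863-29925112, plus strand), the Il18 start (chr9:50554450-50554699, plus strand) and the second Il1f5 start (chr2:24277021-24277270, plus strand), each read 5′ to 3′. Capitals mark the match to a searched motif.
Il33: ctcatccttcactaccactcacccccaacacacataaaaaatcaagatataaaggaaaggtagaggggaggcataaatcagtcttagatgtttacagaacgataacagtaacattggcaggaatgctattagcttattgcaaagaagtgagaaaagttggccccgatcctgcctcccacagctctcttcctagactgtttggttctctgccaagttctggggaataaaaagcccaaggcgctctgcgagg
Il18: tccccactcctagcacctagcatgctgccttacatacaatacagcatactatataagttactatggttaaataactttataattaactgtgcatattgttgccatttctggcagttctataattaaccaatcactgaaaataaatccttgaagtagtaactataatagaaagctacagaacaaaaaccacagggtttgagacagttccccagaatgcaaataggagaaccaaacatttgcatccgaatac
Il1f5: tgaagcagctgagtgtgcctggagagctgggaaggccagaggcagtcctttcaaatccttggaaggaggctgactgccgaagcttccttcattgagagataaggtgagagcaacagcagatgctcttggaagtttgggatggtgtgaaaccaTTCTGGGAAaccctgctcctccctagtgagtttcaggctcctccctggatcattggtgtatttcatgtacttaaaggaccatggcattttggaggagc

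6 motifs were searched on both strands: AP-1 (TGANTCA), the NF-kB motif, GAS, the site of STAT dimers (TTCNNNGAA), an E-box (CACGTG), the GC box (GGGCGG) and the p53 family motif. The Il1f5 window shown held 1 GAS match, marked above, whose first base lies at -98 from the start. Of all 32851 promoter windows 7.02% hold a GAS match before the start. No other motif matched in any of the 5 windows, before or after the start. Before the start, the p53 family motif occurs in 7.13% of all windows, AP-1 in 6.75%, NF-kB in 1.41%, the E-box in 6.02% and the GC box in 32.7%. The windows shown had a GC content of 45.2% for Il33, 35.6% for Il18 and 50.8% for Il1f5. A match describes letters only.

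The rest of the IL-1 pathway on these arrays was read from lists of genes, and these genes were tested. The lists were chosen with earlier results of these data known, so their counts of calls are not independent of those results. Of ligands, Il1b alone was named besides the members. It encodes IL-1 beta, the inflammasome-processed cytokine, and its log2 ratio in high calcium was 0.20 ± 0.19 (SE, n = 2 pairs; limma adjusted p = 0.771). Its pairs of 0.26 and 0.14 lay above 0. Those of the members lay below, which the choice of members largely fixed. In low calcium its single pair was at 0.21. Il1a, Il1rn, Il36a, Il36b and Il36g were not among the named genes, under these or their older names, and are not analysed here.

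Receptors and decoys showed small ratios. Of 4 tested in high calcium 0 passed limma (0 at an unadjusted p under 0.05), where 1.39% of all 7263 rows passed (0.84% lower and 0.551% higher). Their median log2 ratio was 0.15, against 0.01 over all rows tested. Il18bp, a secreted decoy that binds IL-18, was at 0.19 (pairs 0.03, 0.19 and 0.35). Il18rap, the accessory chain of the IL-18 receptor, was at 0.11 (pairs 0.11 and 0.10). Il1r1, the IL-1 receptor, was at 0.29, and Sigirr, a negative regulator of the family, was at 0.04 from pairs of opposite sign (0.44 and -0.36). On forward arrays alone Il1r1 (-0.32), Il18rap (-0.39) and Sigirr (-0.96) were below 0, and on reversed arrays alone Il18bp was (-0.21). Il1rap, the accessory chain shared by IL-1, IL-33 and IL-36 receptors, had values on 4 arrays and no complete pair. Il1rl1 and Il1rl2, the IL-33 and IL-36 receptor chains, were not among the named genes.

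Of 7 processing and inflammasome genes tested in high calcium, Casp8 alone fell (1 of 7; background 0.84% of rows lower). Casp8 is the initiator caspase of death receptors and can also cleave IL-1 family precursors. Its pairs were at -0.69 and -1.27, a mean of -0.98 ± 0.21 (SE, n = 2 pairs; limma adjusted p = 0.0496). That call stood at the threshold and ended under 8 of 16 alternatives, among them arrays on the same spread (limma adjusted p = 0.108) and forward arrays alone (limma adjusted p = 0.137). Casp1, which activates IL-18, was at -0.31 (pairs -0.12 and -0.50; limma adjusted p = 0.630). Ctss, a cysteine protease, was at -0.41 (limma adjusted p = 0.268). The median of the 7 genes was -0.31, against 0.01 for all rows.

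Of 14 signalling genes tested in high calcium 0 passed limma (2 at an unadjusted p under 0.05). Peli1, a ubiquitin ligase of IL-1 receptor signalling, had the lowest ratio at -0.89 (pairs -0.59 and -1.20; limma adjusted p = 0.0761). Peli1 passed with each calcium level fitted alone, with the array set as a block and without low calcium repeat 3 (limma adjusted p from 0.0244 to 0.0466). Under 13 of 16 alternatives it did not pass. These included 1 array kept (limma adjusted p = 0.718) and trended and robust variance (limma adjusted p = 0.496). Fos, a subunit of AP-1, was at 0.54 (limma adjusted p = 0.250), and Nfkbib, an inhibitor of NF-kB, at -0.43 (limma adjusted p = 0.499). The list's median of 0.05 lay near the 0.01 of all rows.

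Of 18 tested genes from a list meant to hold IL-1 responsive genes of epithelium, Defb1 alone fell in high calcium (1 of 18; background 0.84% of rows lower). At an unadjusted p under 0.05 there were 3, 2 of them lower. Whether Defb1 or the other listed genes respond to IL-1 in these cells was not tested. Defb1, a beta-defensin that kills microbes at epithelial surfaces, had pairs at -1.69, -1.68 and -1.61, a mean of -1.66 ± 0.20 (SE, n = 3 pairs; limma adjusted p = 0.00639). Its call ended with its direction unchanged under 5 of 19 alternatives. These were forward arrays alone (-1.23; limma adjusted p = 0.103), reversed arrays alone (-2.10; limma adjusted p = 0.153), arrays on the same spread (limma adjusted p = 0.0775), 1 array kept (limma adjusted p = 0.601) and trended variance (limma adjusted p = 0.109). With deposited signs kept its ratio was 0.44, and the call was lost there too (limma adjusted p = 0.301). S100a9, a calcium-binding alarmin, was at -0.66 (limma adjusted p = 0.141), and Ccl7, a monocyte chemokine, at 0.49 (limma adjusted p = 0.345). The list's median was 0.17.

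In low calcium the same 4 pathway lists had 0 calls by limma: 0 of 2 receptors, 0 of 7 processing genes, 0 of 8 signalling genes and 0 of 12 responsive genes, where 0.409% of all 4646 rows passed (0.387% lower and 0.0215% higher). At an unadjusted p under 0.05 they held 0, 1, 0 and 4. Defb1 was at -0.56 there, from pairs of -1.17 and 0.04 (limma adjusted p = 0.478), and S100a9 at -0.67 (limma adjusted p = 0.196). Lcn2, which encodes the iron-binding lipocalin 2, was at -0.63 (limma adjusted p = 0.306; 0.85 on reversed arrays alone). Gsdma, a pore-forming gasdermin of skin, was at -0.47 (limma adjusted p = 0.477), and Relb, an NF-kB subunit, at 0.42 (limma adjusted p = 0.535). Fewer genes were tested there, so the counts of the levels cover different genes.

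**Figure D3:**
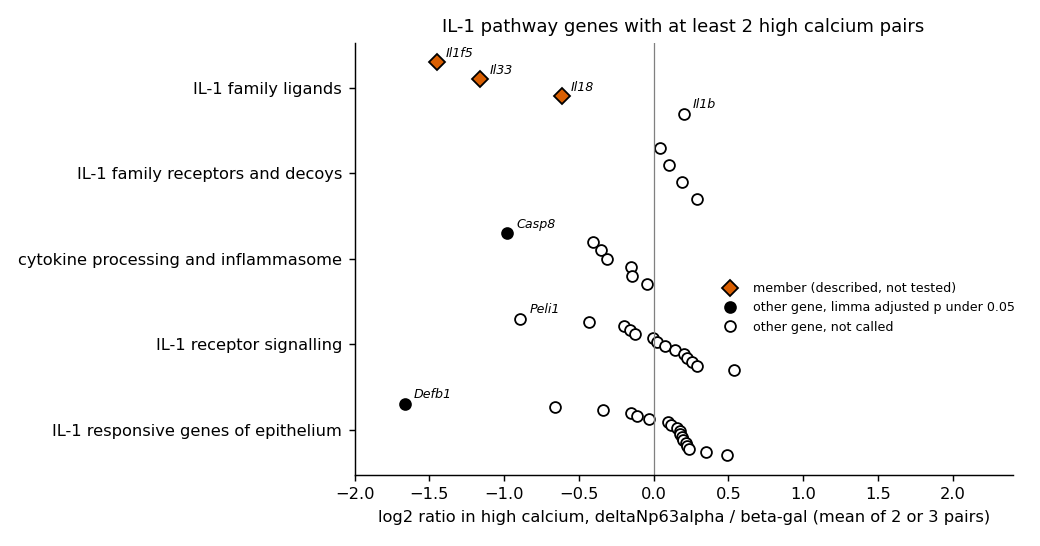
Log2 ratio of deltaNp63alpha over beta-gal in high calcium (horizontal axis, mean of 2 or 3 pairs) for genes of 5 IL-1 pathway lists (rows). Orange diamonds are the members, black points passed limma and white points did not; Casp8 (-0.98) and Defb1 (-1.66) are the called genes outside the members.

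For markers of other cell types, 6 lists for fibroblasts, endothelium, macrophages and dendritic cells, lymphocytes, mast cells and melanocytes held 49 genes on the arrays, all with a value on some array. In high calcium 0 of 34 tested passed limma (1 at an unadjusted p under 0.05), near the background of 1.39%, with ratios from -0.41 to 0.75 and a median of 0.01. In low calcium 0 of 29 passed (5 at an unadjusted p under 0.05; background 0.409%), from -0.55 to 0.69. Cd163, a macrophage scavenger receptor, lay above 0 in all its pairs, at 0.88 and 0.62 in high calcium (mean 0.75; limma adjusted p = 0.108) and 1.14 in low calcium. Mrc1, a macrophage lectin, lay below 0 in all its pairs, at -0.74, -0.02 and -0.58 in low calcium (mean -0.45; limma adjusted p = 0.412) and -1.31 in high calcium. Genes of the granular and cornified layers, the outer layers of differentiated epidermis, were divided. This list, like the marker lists, was chosen with earlier results of these data known, so its counts are no independent test. In high calcium 6 of 12 fell and 0 rose (background 0.84% of rows lower and 0.551% higher), with a median of -0.85. Those that fell were the filaggrin gene Flg (-1.93, with pairs at -1.01, -1.13 and -3.64), the proteases Klk7 (-1.73) and Klk5 (-1.69), Sprr1a (-1.63), the suprabasal keratin Krt10 (-1.57) and Crct1 (-1.43). Without high calcium repeat 3, the Flg mean was -1.07 and its call was lost (limma adjusted p = 0.0993). The 6 that did not pass were Alox12b (-0.27), Tgm3 (-0.21), Lor (-0.15), Ppl (-0.13), Grhl1 (0.06) and Ovol1 (0.42). In low calcium 1 of 9 fell, Sprr1a (-2.15; background 0.387% of rows lower), and the median was 0.13. Flg (-1.51; limma adjusted p = 0.191) and Klk5 (-0.94; limma adjusted p = 0.139) were also below 0 there but did not pass. Krt10 (-1.32), Crct1 (-1.04) and Klk7 (-0.93) had 1 low calcium pair each, too few for a test, and the low calcium count and median leave them out. The smaller count therefore does not show that the fall was limited to high calcium. Of the keratinocyte markers 4 of 12 fell in high calcium, 3 of them in both lists (Flg, Sprr1a, Krt10) and the fourth the integrin Itgb1 (-0.93), which also fell in low calcium (-1.25). In high calcium the Itgb1 call ended with its direction unchanged under 8 of 20 alternatives. These included the fit without repeat 2 (-0.69, limma adjusted p = 0.275). In low calcium the call ended with its direction unchanged under 7 of 20. These included forward arrays alone (-0.38, limma adjusted p = 0.526). With deposited signs kept Itgb1 was at 0.49 in high and 0.86 in low calcium. It did not pass there either (limma adjusted p = 0.365 and 0.0545). With arrays on the same spread none of these 6 outer-layer genes passed in high calcium (limma adjusted p from 0.0531 to 0.0835), nor on forward arrays alone (from 0.0894 to 0.145), and with deposited signs kept 5 of the 6 lay above 0. The part of these shifts in the ratios of the members was not tested.

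The genes with pair values most like each member were sought among named genes measured in all of its pairs, by the root-mean-square difference of pair values. For Il1f5 (3 pairs, 5207 genes, median difference 1.47) they were Fam25c (0.14), the tight junction gene Cldn1 (0.18), Endou (0.20), Defb1 (0.24) and Sprr1a (0.24), a precursor of the cornified envelope. These genes had ratios between -1.17 and -1.81 in each of the 3 pairs. For Il18 (4 pairs, 1603 genes, median 0.76) they were Clu (0.21), which encodes the chaperone clusterin, the p53 inhibitor Mdm2 (0.21), BC031181 (0.21), the epidermal protease gene Klk8 (0.22) and D1Pas1 (0.22). All 5 were below 0 in every pair they shared with Il18 and lowest in high calcium repeat 3. For Il33 (4 pairs, 2850 genes, median 0.98) they were the lysosomal mannosidase gene Manba (0.27), the histone chaperone gene Nasp (0.31), Ino80d (0.33), Rhbdd2 (0.38) and Itprid2 (0.39). Each was above 0 in low calcium repeat 2 and below 0 in both high calcium pairs. For all members the way the nearest genes were picked largely fixed such shared signs and sizes, so nothing is read from them. Among the genes compared with Il1f5, Il33 ranked 197 and Il18 593. Members could not be compared in the Il33 and Il18 lists, since each lacked a pair needed there. With arrays on the same spread 4 of the 5 genes nearest Il1f5 remained, 3 of those nearest Il33 and 2 of those nearest Il18. With deposited signs kept, 0, 1 and 0 remained for Il1f5, Il33 and Il18.

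**Figure D4:**
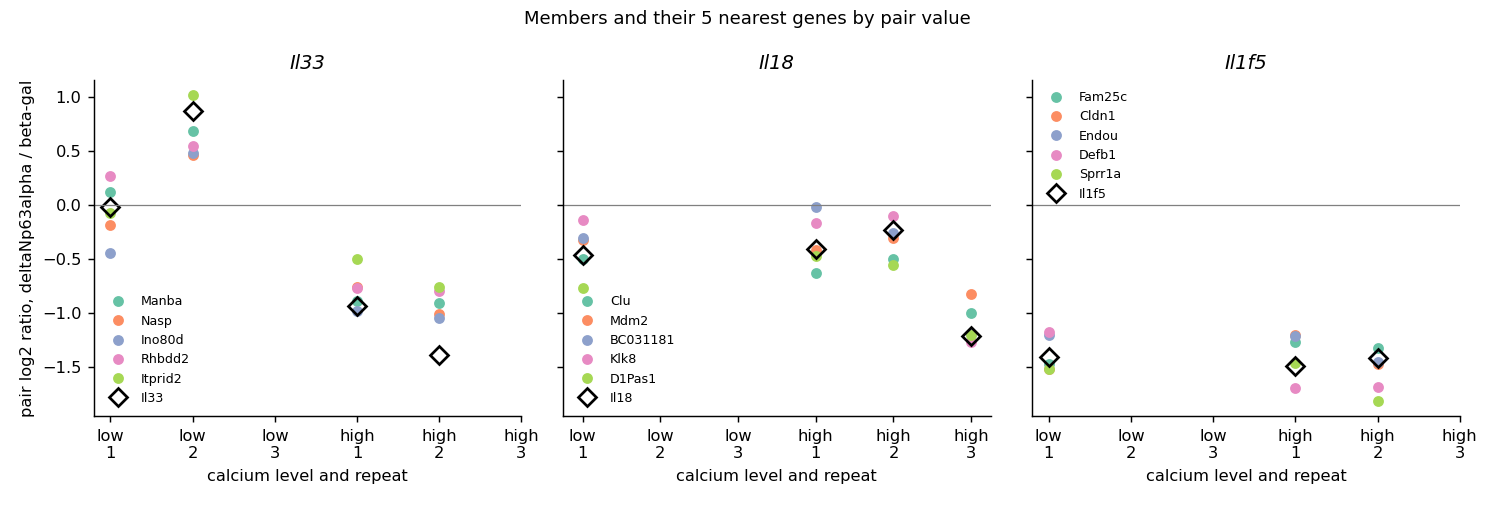
Pair log2 ratio (vertical axis) of each member (black diamonds) and of the 5 named genes nearest to it (coloured points), by calcium level and repeat (horizontal axis), in pairs where the member has a value. The genes nearest Il1f5 lie between -1.17 and -1.81, and those nearest Il33 change sign between low calcium repeat 2 and the high calcium pairs. The way the genes were picked largely fixed this likeness.

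The values of the members under other processing spread unevenly. With reversed arrays turned, Il1f5 in high calcium ranged from -2.15 to -1.35, Il33 from -1.68 to -0.71 and Il18 from -1.21 to -0.32. In low calcium Il1f5 ranged from -2.06 to -0.44 and Il18 from -0.91 to -0.16. Il33 in low calcium ranged from -0.62 to 1.48, on both sides of 0.

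**Figure D5:**
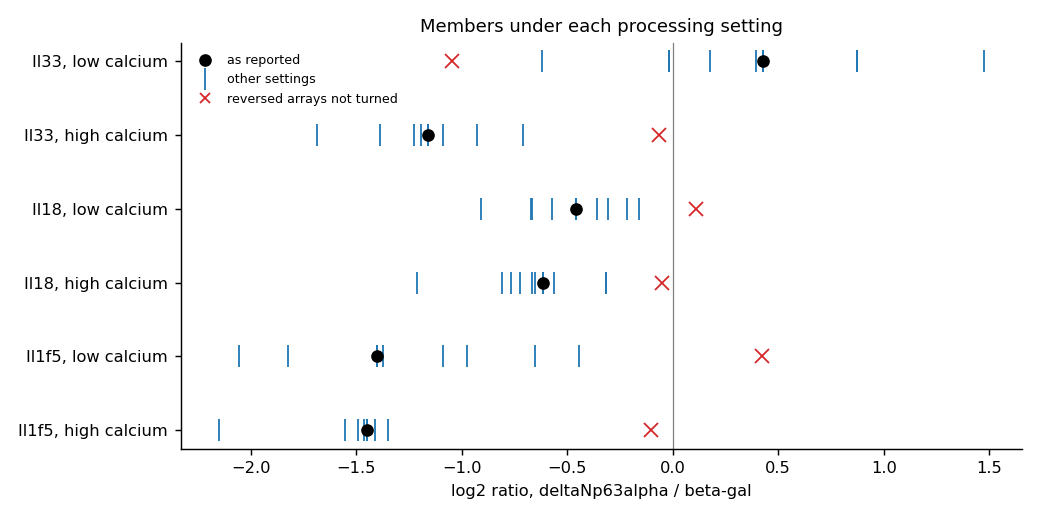
Log2 ratio of deltaNp63alpha over beta-gal (horizontal axis) of each member at each calcium level (rows) as reported (black), under other settings with reversed arrays turned (blue bars) and with reversed arrays as deposited (red crosses). Il33 in low calcium is the one member value with blue bars on both sides of 0, and the red crosses of high calcium lie between -0.10 and -0.05.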

How the data were processed

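The authors deposited log2 ratios of the 2 dyes of each spotted cDNA array; the log base was inferred from the values. RNA was labelled with a Genisphere kit, per the labels' protocols. For scanning, background and normalisation steps nothing is stated in the labels or headers. The members, gene lists, motifs and rules were chosen with earlier results of these data known.

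Probes were named from the platform annotation (7457 with 1 symbol, 481 with several, 1620 unnamed here), 7368 symbols were updated by gene ID, and probes of a symbol were averaged, leaving 8875 rows. Each array was centred on its median. A pair value is the forward minus the reversed value, divided by 2, and needs both arrays. All 6 pairs were fitted together in limma 3.58.1 under R 4.3.3 (linear model, moderated by eBayes), and rows with at least 2 pairs of a level were tested there. A gene was called where its p, adjusted by Benjamini-Hochberg over all rows, was under 0.05. The fit was tested on simulated pairs. Named genes were the members, measured ligands, called genes and up to 3 genes of smallest p of each pathway list (marker lists are given mainly as counts), the 5 nearest genes, and Trp63 and Serpinb5 as checks. Named beyond that rule, after values were seen, were Krt5, Il1rap, Casp1, Nfkbib, Ccl7, Sigirr, 6 outer-layer genes that did not pass, Serping1 and genes without a value. The number of arrays limits the precision. Repeat numbers did not pair samples across calcium levels: deviations of same-numbered pairs correlated at -0.03, -0.11 and 0.20 over 1381 rows. Coordinates and promoter sequences are RefSeq's; the arrays name no build.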

Additional observations from a re-analysis of the deposited data

How the results depend on the processing

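Of 132 recomputed member values, 105 moved by less than the spread between pairs or arrays, 20 moved by more and 7 changed sign. Several settings could not move a value at 1 calcium level. Leaving out a pair of the other level or a pair without a value returns the same mean. So do fitting each level alone and trended and robust variance. The 105 are therefore no measure of stability. With reversed arrays left as deposited, Il33, Il18 and Il1f5 were at -1.05, 0.11 and 0.42 in low calcium and at -0.0669, -0.0509 and -0.1014 in high calcium, and the Il33 difference (high minus low) was 0.98. With arrays on the same spread, Il33 in high calcium was -1.68, Il18 in low calcium -0.67, and Il1f5 -2.06 and -2.15 in low and high calcium. On forward arrays alone Il33 (low), Il18 (low), Il1f5 (low), Il1f5 (high) and the Il33 difference were -0.62, -0.16, -0.44, -1.55 and -0.61, and on reversed arrays alone Il33 (low), Il1f5 (high) and the difference were 1.48, -1.35 and -2.57. With the array set as a block Il33 in high calcium was -0.71 and Il18 in low calcium -0.91; in the earlier set alone Il33 in low calcium was -0.0175, and in the later set alone Il18 in high calcium was -1.21. With 1 array kept, Il18 and Il1f5 in low calcium were -0.22 and -0.66. With 1 pair left out, Il33 ranged from -0.0175 to 0.875 in low calcium (-0.0175 without low calcium repeat 2).

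Genes called by limma numbered 19 in low calcium, 101 in high calcium and 0 for the difference (107 at an unadjusted p under 0.05). In low calcium the count was 763 with deposited signs kept, 47 with the array set as a block, 3 and 10 with arrays as replicates (dye term, pair as random block), 49 with levels fitted alone, 33 and 330 on forward and reversed arrays alone, 5 for probes valued on every array and 6 to 51 with 1 pair left out. It was 0 with arrays on the same spread, pairs with 1 array kept, and trended and robust variance (274, 512 and 401 at an unadjusted p under 0.05). In high calcium it was 29 with a dye term, 33 with at least 3 pairs, 236 with levels fitted alone, 22 for probes valued on every array, 33 to 151 with 1 pair left out, and 1 with arrays on the same spread or reversed arrays alone. It was 0 with deposited signs kept, forward arrays alone, 1 array kept, and trended and robust variance (1270, 1883, 555 and 585 at an unadjusted p under 0.05). For the difference it was 1 with the array set as a block and 0 to 1 with 1 pair left out. With the repeat number as a replicate block the counts were 61, 199 and 2, and Il18 in low calcium was -0.67. All genes then shared 1 variance, and repeat numbers did not pair samples across calcium levels. The 2 genes called for the difference were Il33 and Serping1. Il33 was chosen after it led the ranking of this difference, so its call is no test.

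Among tested genes in high calcium, the call of Casp8 ended under 8 of 16 alternatives, and Peli1 passed under 3 of 16. The Defb1 call ended with its direction unchanged under 5 of 19, and it was also lost with deposited signs kept. With deposited signs kept, signs changed for Il1b (-0.0254), Il1r1 (-0.61), Il18rap (-0.50), Sigirr (-1.01), Fos (-0.0219), Nfkbib (0.18), Ctss (0.36), Casp1 (0.13), Defb1 (0.44), S100a9 (0.21) and Ccl7 (-0.0472), for the outer-layer and integrin genes Flg (0.29), Klk7 (0.19), Klk5 (0.23), Sprr1a (0.32), Crct1 (0.34) and Itgb1 (0.49), and in low calcium for Defb1 (0.021), S100a9 (0.45), Relb (-0.25), Sprr1a (0.91) and Itgb1 (0.86). On forward arrays alone they changed for Il1r1 (-0.32), Il18rap (-0.39) and Sigirr (-0.96), and on reversed arrays alone for Il18bp (-0.21) and Lcn2 in low calcium (0.85). The causes were not tested. Each member has 1 probe, so probes were not kept apart. Under the filter for values on every array no member remained, and with at least 3 pairs only Il18 in high calcium did. The exact sign-flip test was not run, since 3 pairs cannot reach the threshold.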
